A study of Mus musculus with 4 samples.

Results

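The kinase module of Mediator was described in fibroblasts with and without the Mediator subunit Med1. Its members were taken as every probe set of the array annotated to Med12, Med12l, Med13, Med13l, Cdk8, Cdk19 (formerly Cdc2l6) or Ccnc. That gave 6 probe sets of 22626 on the array besides controls, and they covered 4 of the 7 genes: Med12, Med12l and Cdk8 had 1 probe set each and Ccnc had 3. No probe set carried Med13, Med13l or Cdk19 as its single gene symbol, so those 3 genes are not analysed here. The cells were mouse embryonic fibroblasts grown from E10.0 embryos on a C57BL/6J background, in medium with 10% fetal calf serum. There were 2 arrays of Med1-/- p53-/- cells and 2 arrays of Med1+/+ p53-/- cells, so both genotypes lacked p53. The labels trace both to 1 mating, of a male heterozygous for Med1 and null for p53 with a female heterozygous for both. Whether replicate arrays came from separate cultures is not stated, so the p-values reflect the scatter of these 4 samples alone, and that scatter may be technical.

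Mediator is the large complex that carries signals from DNA-bound transcription factors to RNA polymerase II. Its core is built of head, middle and tail modules, with Med1 in the middle. The kinase module binds that core reversibly and, while bound, keeps the polymerase from docking. It has 4 subunits: a cyclin-dependent kinase (Cdk8 or its paralog Cdk19), cyclin C, which Ccnc encodes, Med12, which activates the kinase, and Med13, which tethers the module to the core. Med12l and Med13l are vertebrate paralogs of the last pair.

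Within the module the measured genes moved in opposite directions after quantile normalization. Relative to other genes, Med12 was 2.08-fold higher in Med1-/- cells, whereas Ccnc was 1.87-fold lower on its brightest probe set and Cdk8 was 1.36-fold lower (n = 2 arrays per genotype). These folds come from quantile normalized intensities, because the deposited arrays differed in overall level. Array medians were 36.1 and 51.4 in Med1-/- cells, against 76.25 and 106.65 in Med1+/+ cells. Whether that difference lay in the array processing or in the RNA of the cells was not tested. Of the 6 probe sets, 4 had a mean above the expression filter of 33.28 and were tested, 1 of them rising and 3 falling at an adjusted p under 0.05 (limma with Benjamini-Hochberg adjustment). The 3 that fell were that of Cdk8 and 2 of Ccnc. The dimmer of these Ccnc probe sets, 1417861_at, met the filter only through its Med1+/+ values. Of all 13576 probe sets tested, 36.3% rose, 35.7% fell and 72.1% changed in either direction, so a called change was the usual outcome on these arrays. The near balance of rises and falls depended on quantile normalization: as deposited, 332 probe sets were higher and 6130 lower. For comparison, the median absolute log2 change of all probe sets tested was 0.83 after quantile normalization. Having 4 arrays in all limits how precise any of these values can be.

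Med12 encodes the large subunit through which the module switches on its kinase. The Med1-/- arrays gave deposited intensities of 217 and 352.4, against 218.7 and 278.8 on the Med1+/+ arrays, and those ranges overlapped. After quantile normalization the intensity was 372.6 and 416.8 in Med1-/- cells, against 197.9 and 179.5 in Med1+/+ cells. Both Med1-/- arrays then lay above both Med1+/+ arrays, and 87.0% of the probe sets tested separated the genotypes in one direction or the other. The mean log2 value was 8.63 ± 0.114 in Med1-/- and 7.57 ± 0.0987 in Med1+/+ cells (SD, n = 2 each), a log2 change of 1.06 (95% interval 0.74 to 1.37; adjusted p = 0.000562, limma).

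The rise of Med12 depended on the scale that the arrays were put on. In the values as deposited the log2 change was 0.16 (adjusted p = 0.805, limma), on a scale set by the hybridisation controls it was 0.12 (adjusted p = 0.462), and on one set by the Bacillus subtilis spike-in transcripts it turned to -0.73 (adjusted p = 0.00138). Those scalings also moved the median of all probe sets, to -0.87, -0.91 and -1.78, from 0.03 after quantile normalization. Set against the median of all probe sets, Med12 was higher by 0.998 to 1.043 on the log2 scale under the 6 scalings tried. Apart from quantile normalization these scalings differ only by 1 factor per array, which shifts gene and median alike. The narrow range was thus largely fixed in advance. Whether its signal per cell was higher cannot be told from these arrays.

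Med12 is X-linked, and a marker of the inactive X chromosome differed between the genotypes in the same arrays. On one Xist probe set, 1427262_at, the deposited intensity was 39.5 and 28.2 in Med1-/- cells, against 2058.7 and 2601 in Med1+/+ cells. Xist RNA coats the inactive X. Y-linked RNA was low in both genotypes: over the probe sets of Eif2s3y, Kdm5d and Uty the deposited intensity was at most 6.9 in Med1-/- and at most 11.4 in Med1+/+ cells. Of 236 X-linked genes tested, each by its brightest probe set, 55 rose and 135 fell in Med1-/- cells, with a median log2 change of -0.69, against 38.7% rising and 36.2% falling among all 8937 features counted that way. Med12 was therefore among the minority of X-linked genes that rose. The X-linked subunit gene Med14 had a log2 change of 0.79 and did not pass (adjusted p = 0.0559, limma). It met the filter through its Med1-/- values, since both Med1+/+ values lay below 33.28. The part of the X chromosome state in the Med12 value was not tested.

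Med12l, the paralog of Med12, was dim. The Med1-/- arrays gave deposited intensities of 1.3 and 5.6, against 18.1 and 14.8 on the Med1+/+ arrays. The normalized values were 2 and 6.65 in Med1-/- cells, against 16.88 and 9.975 in Med1+/+ cells, so both Med1-/- arrays were lower, with wide spread between replicates. The mean lay under the filter and the gene was not tested. Its log2 difference of -1.41 shrank to -0.53 with a pseudocount of 16, so its size is not well measured.

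The Med12 pair was the one paralog pair with both members on the array. The log2 difference of Med1-/- from Med1+/+ was 1.06 for Med12 and -1.41 for Med12l, which is 2.46 apart. That gap was 2.11 in the values as deposited and 1.54 with a pseudocount of 16. With 2 arrays against 2, the exact permutation test (two-sided) gave p = 0.333, the smallest it can give.

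Cdk8 encodes the kinase itself. Its deposited intensity was 503.5 and 768 in Med1-/- cells, against 1165 and 1775.8 in Med1+/+ cells. Normalized, it was 841.6 and 878.5 in Med1-/- cells, against 1125 and 1217 in Med1+/+ cells. The groups did not overlap on either scale, and after normalization neither did those of 87.0% of the probe sets tested. That share was not counted for the values as deposited. The mean log2 value was 9.75 ± 0.0437 in Med1-/- and 10.2 ± 0.0793 in Med1+/+ cells (SD, n = 2 each), a log2 change of -0.44 (95% interval -0.69 to -0.19; adjusted p = 0.0082, limma). The change was smaller than that of its cyclin, and its call did not hold throughout: with array medians set equal it was -0.14 (adjusted p = 0.258), and without replicate 2 of Med1+/+ it was -0.39 (adjusted p = 0.0604).

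Ccnc encodes cyclin C, the partner without which the kinase is inactive. On its brightest probe set, 1428570_at, the deposited intensity was 57.4 and 74 in Med1-/- cells, against 204.9 and 307.3 in Med1+/+ cells. Normalized, it was 106.9 and 96.95 in Med1-/- cells, against 184.8 and 198.3 in Med1+/+ cells, with no overlap, as for 87.0% of the probe sets tested. The log2 change was -0.90 (95% interval -1.25 to -0.55; adjusted p = 0.00178, limma).

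A second Ccnc probe set, 1417861_at, changed by nearly the same amount. Its normalized intensity was 25.79 and 30.2 in Med1-/- cells, against 47.98 and 56.02 in Med1+/+ cells, a log2 change of -0.85 (95% interval -1.55 to -0.16; adjusted p = 0.0339, limma). It passed the filter through its Med1+/+ values, since both Med1-/- values lay below 33.28, and its call was lost with no filter (adjusted p = 0.0748) and without replicate 1 of Med1+/+ (0.125), replicate 2 of Med1+/+ (0.223) or replicate 1 of Med1-/- (0.052). The third, 1454144_a_at, was near the floor in both genotypes. Its normalized intensity was 15.45 and 5.55 in Med1-/- cells, against 6.8 and 8.975 in Med1+/+ cells, which overlap, and it was not tested.

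**Figure D1:**
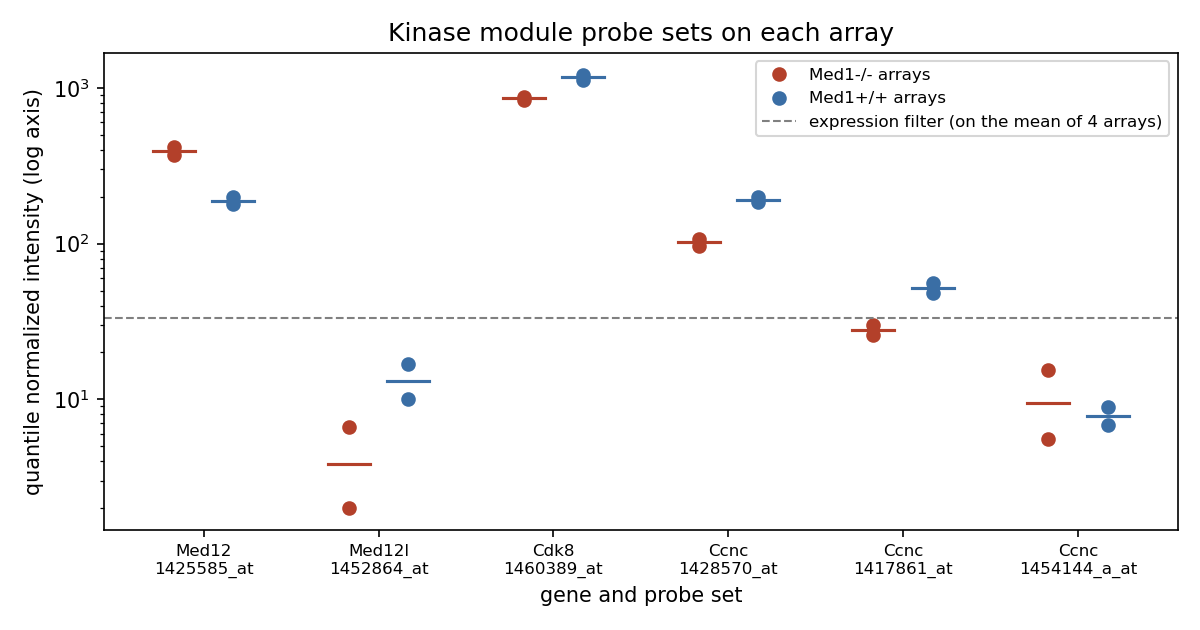
Quantile normalized intensity (log axis) of the 6 kinase module probe sets, 1 point per array, Med1-/- left of Med1+/+, with a bar at the mean of the log2 values and a dashed line at the expression filter of 33.28. Med12 lay higher in Med1-/- cells (372.6 and 416.8) than in Med1+/+ cells (197.9 and 179.5), Cdk8 and the 2 brighter Ccnc probe sets lay lower, and Med12l and the third Ccnc probe set lay under the filter.

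The gap between Med12 and its partners hardly depended on scaling, since a scale factor cancels within an array. The log2 changes of Med12 and Ccnc were 1.96 apart after quantile normalization, 2.08 apart in the values as deposited and 2.07 apart on the Bacillus subtilis scale. Those of Med12 and Cdk8 were 1.501, 1.370 and 1.374 apart in the same order. Between Cdk8 and Ccnc the gap was 0.46 after quantile normalization, where the SD of the per-array difference was 0.142 for Med1-/- and 0.00803 for Med1+/+ (n = 2 each), and 0.71 in the values as deposited. Each gap gave p = 0.333 in the exact permutation test (two-sided), the smallest that 2 arrays against 2 allow. These 3 comparisons were chosen after the values were seen.

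**Figure D2:**
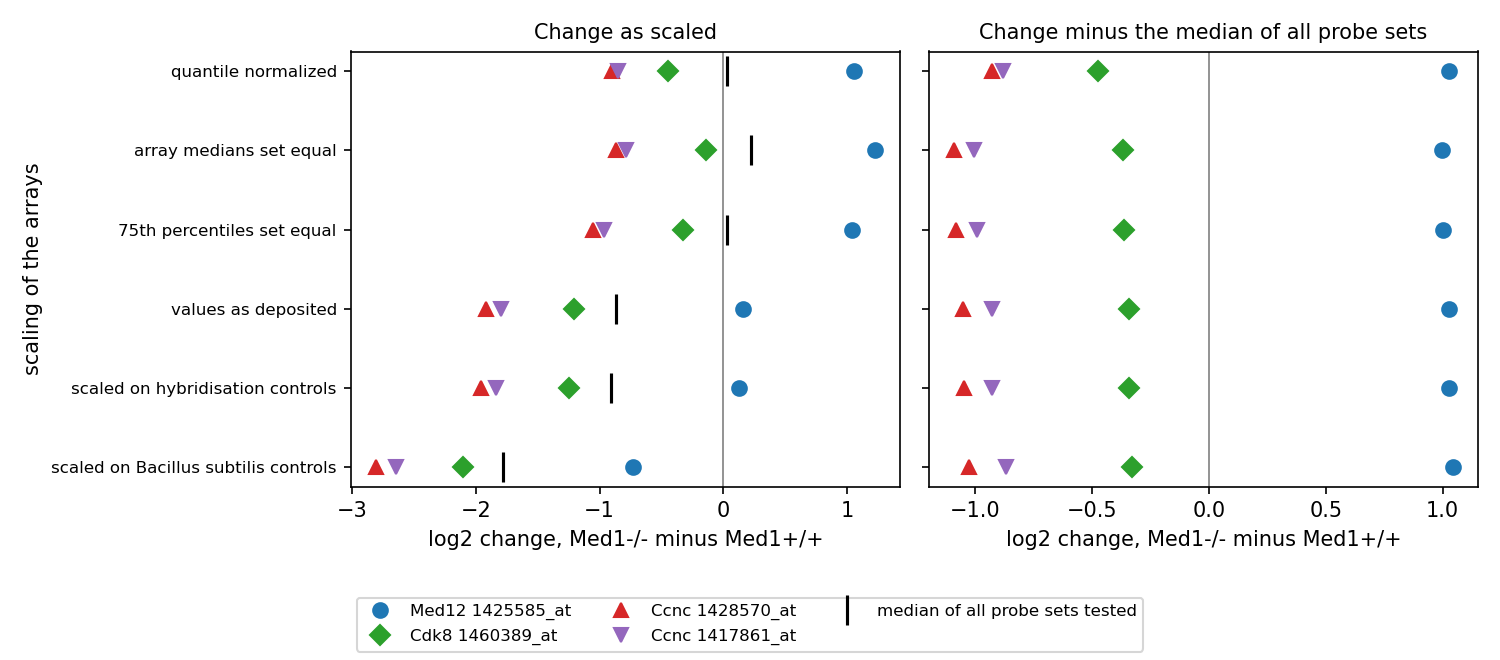
Log2 change (Med1-/- minus Med1+/+) of the 4 tested kinase module probe sets under 6 scalings of the arrays, as scaled on the left with the median of all probe sets as a tick, and minus that median on the right. On the left Med12 spans 1.22 to -0.73 and changes sign on the Bacillus subtilis scale, and on the right it stays between 0.998 and 1.043, with Ccnc 1428570_at between -1.09 and -0.93 and Cdk8 between -0.47 and -0.33. The narrow ranges on the right were largely fixed in advance, since all scalings but quantile normalization differ only by 1 factor per array.

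The promoters of the 3 genes with called changes are shown because, after quantile normalization, Med12 rose while its partners fell. They are RefSeq windows of assembly GRCm38.p6, 250 bases before to 50 after an annotated transcription start, all on the plus strand: chrX:101273841-101274140 for Med12, chr4:21727451-21727750 for Ccnc and chr5:146231000-146231299 for Cdk8. The Cdk8 window lies inside the RefSeq gene span, which begins at 146230795, so it belongs to a start downstream of the first one. Capitals mark matches, on either strand, to any of 9 motifs searched.
Med12: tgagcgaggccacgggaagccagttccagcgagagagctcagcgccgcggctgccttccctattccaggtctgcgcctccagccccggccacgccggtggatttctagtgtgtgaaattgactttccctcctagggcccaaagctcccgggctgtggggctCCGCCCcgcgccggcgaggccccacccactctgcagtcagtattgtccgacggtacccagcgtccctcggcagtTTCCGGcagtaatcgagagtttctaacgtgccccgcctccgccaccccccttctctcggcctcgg
Ccnc: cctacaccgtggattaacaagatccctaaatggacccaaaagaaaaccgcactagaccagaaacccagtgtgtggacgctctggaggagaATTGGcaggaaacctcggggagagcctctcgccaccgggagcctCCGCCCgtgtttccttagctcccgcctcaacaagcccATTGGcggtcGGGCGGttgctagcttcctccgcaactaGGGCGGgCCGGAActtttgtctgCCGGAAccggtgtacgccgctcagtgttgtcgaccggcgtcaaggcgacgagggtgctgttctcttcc
Cdk8: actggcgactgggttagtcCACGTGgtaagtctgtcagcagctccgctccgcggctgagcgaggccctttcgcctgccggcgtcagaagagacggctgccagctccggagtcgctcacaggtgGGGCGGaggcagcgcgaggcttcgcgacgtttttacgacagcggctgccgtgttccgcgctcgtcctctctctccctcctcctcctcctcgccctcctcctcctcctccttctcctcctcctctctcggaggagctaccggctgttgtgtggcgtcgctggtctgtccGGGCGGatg

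All 3 windows were rich in G and C (66.3% in Med12, 60% in Ccnc and 66.7% in Cdk8, against a median of 52.7% over 32851 RefSeq windows). Each held the GC box GGGCGG, bound by Sp and Kruppel-like factors: 1 match in Med12, 3 in Ccnc and 2 in Cdk8. That motif is present in 35.7% of all windows, a share not counted separately for windows as rich in G and C as these. The ETS core CCGGAA, found in 14.9% of all windows, occurred once in Med12 and 2 times in Ccnc. The CCAAT box, found in 37.4% of windows, occurred 2 times, only in Ccnc among these 3. The E box CACGTG, found in 7.2%, occurred only in Cdk8 among them. None of the 3 held the TATA box TATAAA, the cAMP response element TGACGTCA, the YY1 motif AAGATGGC, the nuclear receptor core motif AGGTCA or the NRF1 motif, which stand in 13.6%, 1.8%, 2.7%, 16.3% and 4.6% of all windows. The matches are descriptions of these letters, and binding was not measured.

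Med12 lies on chromosome X (101274091 to 101298934, GRCm38.p6), Ccnc on chromosome 4 (21727701 to 21759922), Cdk8 on chromosome 5 (146230795 to 146302874) and Med12l on chromosome 3 (59005419 to 59318446). The Med12l locus also contains purinergic receptor genes, P2ry12 and P2ry14 among them. Their probe sets were dim too, at no more than 2.4 deposited units in Med1-/- cells and 10.3 in Med1+/+ cells.

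Many genes shared the profiles of the module genes across the 4 arrays. For Med12, the nearest by Euclidean distance between centred log2 profiles were Ext2 (distance 0.0407), Zfyve19 (0.0427) and Ubox5 (0.0485). For Ccnc they were Rap1b (0.0226), Riok3 (0.0367) and Fam114a2 (0.0378). A distance of at most 0.5 was reached by 2590 of 12527 other named probe sets for Med12 and by 2560 of 12526 for Ccnc, so 4 arrays single out few genes.

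The rest of Mediator also moved both ways. For Med1 itself, probe set 1448708_at had a deposited intensity of 25.4 and 40.2 in Med1-/- cells, against 664.6 and 885.6 in Med1+/+ cells, in the direction of the labels. Among the 6 Med1 probe sets it had the largest log2 difference (-3.57). The smallest was -0.30, on 1453972_x_at, which was under the filter and overlapped between the genotypes. Of 25 other core subunit genes listed, 24 were found and tested, of which 10 rose, 8 fell and 6 did not pass (median log2 change 0.24, against 0.08 for all features by brightest probe set). Among all those features 38.7% rose and 36.2% fell, so the subunits were called about as often as other genes. In the tail, which receives many activators, 4 of 6 rose and 1 fell. In the head, which contacts the polymerase, 3 of 10 rose and 3 fell, and in the middle 3 of 8 rose and 4 fell. These directions, too, are those of quantile normalized values: as deposited, 1 of the 24 genes passed as higher, and on the Bacillus subtilis scale none passed as higher and 21 fell.

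The tail gene Med15 had the largest change among them, with a deposited intensity of 713.1 and 798.1 in Med1-/- cells, against 293.8 and 420.6 in Med1+/+ cells (log2 change 1.92). The tail genes Med25 (1.57) and Med16 (1.44) rose as well, and the head gene Med6 fell by 1.75, with 21 and 73.7 deposited units in Med1-/- cells, against 215 and 346.8 in Med1+/+ cells (adjusted p from 0.000124 to 0.00733 over the 4, limma). Med26, a subunit known from human cells to be enriched in Mediator that lacks the kinase module, had a log2 change of 1.29 (adjusted p = 0.000848, limma) and was named after its value was seen. Med12, at 1.06, and Ccnc, at -0.90, lay inside the range spanned by the core subunits, from -1.75 to 1.92.

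**Figure D3:**
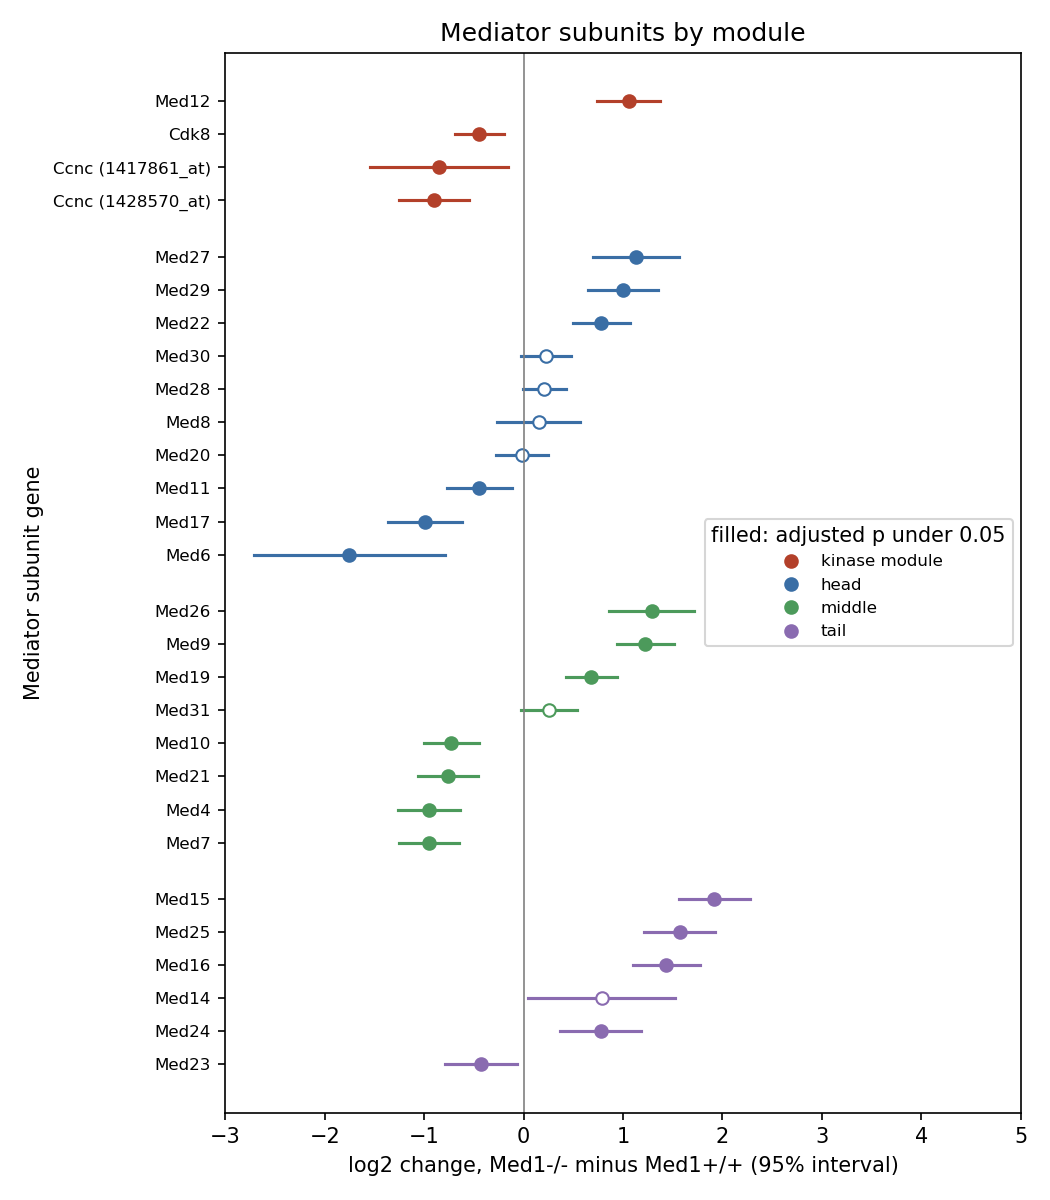
Log2 change (Med1-/- minus Med1+/+, quantile normalized, with 95% intervals from limma) of the tested Mediator subunit genes other than Med1, grouped by module, filled where the adjusted p was under 0.05. The kinase module runs from 1.06 (Med12) to -0.90 (Ccnc), and the head, middle and tail each hold genes on both sides of 0.

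Other kinases and cyclins that act on RNA polymerase II gave a comparison for Cdk8 and cyclin C. Of 14 listed genes 12 were found and 10 tested, with 3 higher, 6 lower and 1 not passing (median log2 change -0.64), against 38.7% higher and 36.2% lower among all features by brightest probe set. Cdk7, the kinase of the general factor TFIIH, had 95.8 and 185.5 deposited units in Med1-/- cells, against 952.9 and 1360.2 in Med1+/+ cells, a log2 change of -2.18 (adjusted p = 0.000105, limma). Its cyclin gene Ccnh fell by 1.65 and the assembly factor gene of the same trio, Mnat1, fell by 0.46. The RNA signal of all 3 subunits of that kinase was thus lower on the brightest probe sets, with Mnat1 nearest the threshold (adjusted p = 0.0388, limma). A second Cdk7 probe set had a smaller difference, -0.54, and did not pass.

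Cdk7 and Ccnh both lie on chromosome 13, where 33 of 287 tested genes rose and 197 fell, with a median log2 change of -0.97. The part of that chromosome-wide shift in the 2 values was not tested. Of the genes of the elongation kinase P-TEFb, the kinase gene Cdk9 rose by 0.72 and the cyclin gene Ccnt2 fell by 1.37. Its other listed cyclin gene, Ccnt1, was under the filter and not tested. The normalized intensity of Ccnt1 was 28.82 and 26.26 in Med1-/- cells, against 25.32 and 24.7 in Med1+/+ cells. Ccnk, the cyclin of the kinases Cdk12 and Cdk13, rose by 1.72, with 88.3 and 177.8 deposited units in Med1-/- cells, against 63.5 and 87.9 in Med1+/+ cells. As deposited, and on the Bacillus subtilis scale, none of the 10 genes passed as higher.

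Genes of proteins that the module is known to phosphorylate or work with were the last group. Of 20 listed, 19 were found and 16 tested, of which 8 rose, 6 fell and 2 did not pass (median log2 change 0.32), against 38.7% rising and 36.2% falling among all features by brightest probe set. None passed as higher in the values as deposited or on the Bacillus subtilis scale. E2f1, a cell cycle factor whose protein is a Cdk8 substrate, had 455.3 and 575.8 deposited units in Med1-/- cells, against 216.2 and 300.3 in Med1+/+ cells, a log2 change of 1.88 (adjusted p = 9.69e-05, limma). A second E2f1 probe set was also called higher, with a smaller change of 1.05. Pygo2, a Wnt coactivator, rose by 1.29. The Wnt effector gene Ctnnb1, which encodes beta-catenin, fell by 1.12, with 2344.2 and 2780.3 deposited units in Med1-/- cells, against 7245.8 and 8393.5 in Med1+/+ cells. All 3 Ctnnb1 probe sets were called lower, with log2 changes from -2.28 to -1.12.

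Hif1a, the hypoxia factor gene, fell by 1.71 and Aff4, the scaffold gene of the super elongation complex, by 1.70, although a second Aff4 probe set had a difference of -0.34 and did not pass. Of the pair through which Med12 is linked to gene silencing in human cells, the histone methyltransferase gene Ehmt2 rose by 0.88 and the repressor gene Rest fell by 0.34 (adjusted p = 0.0493, limma). Fbxw7, whose ubiquitin ligase marks human MED13 for destruction, had a log2 change of -0.22 on its brightest probe set and did not pass (adjusted p = 0.201, limma), while another of its probe sets fell by 0.50.

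**Figure D4:**
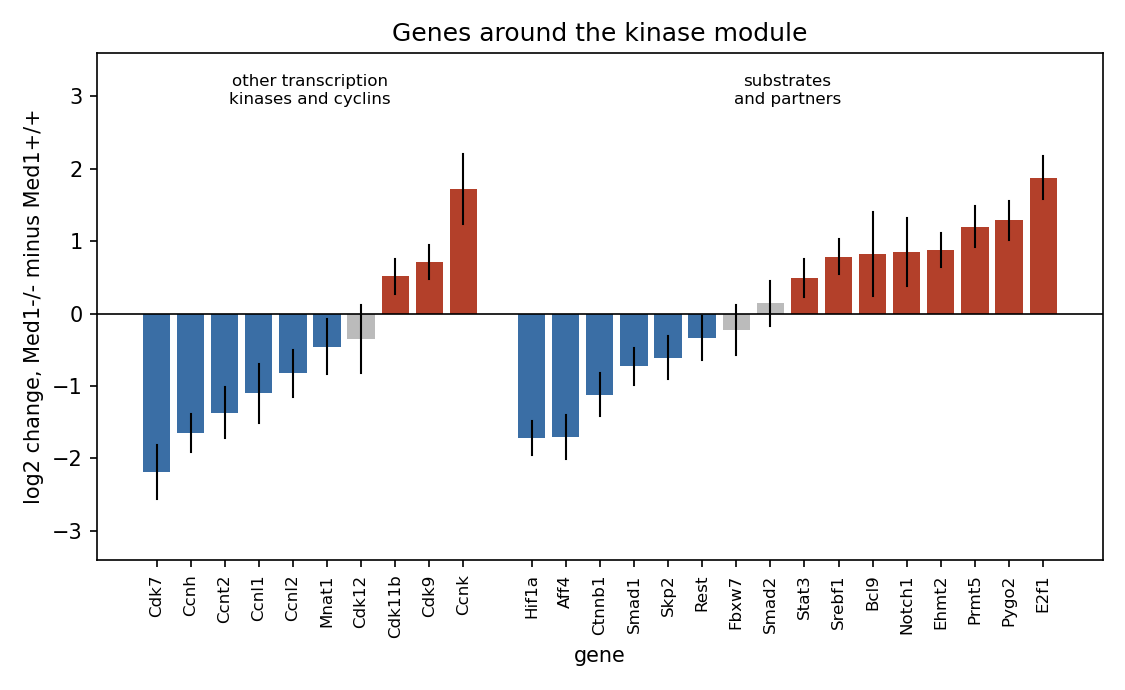
Log2 change (Med1-/- minus Med1+/+, quantile normalized, with 95% intervals from limma as lines) of tested genes of other transcription kinases and cyclins (left) and of substrates and partners of the kinase module (right), red where called higher, blue where called lower and grey where the adjusted p was not under 0.05. Cdk7 (-2.18) and Ccnh (-1.65) are the lowest on the left, and E2f1 (1.88) is the highest on the right.

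Most fibroblast markers were above the filter, and markers of other cell types differed beside the values above. Among all features by brightest probe set 38.7% rose and 36.2% fell. Of 13 fibroblast and mesenchyme markers 12 were tested, 5 rising and 2 falling, while Lum was under the filter. The 2 that fell, Pdgfra (-2.95) and Prrx1 (-2.89), had larger log2 changes than any that rose. The summed normalized intensity of the 13 was 59280 and 55680 in Med1-/- cells, against 46040 and 42920 in Med1+/+ cells. That of 6 epithelial markers was 2294 and 2689 in Med1-/- cells, against 4696 and 4818 in Med1+/+ cells, with 1 rising and 4 falling of 5 tested and Epcam at no more than 4.4 deposited units on any array. Krt19, which rose, made up most of the Med1-/- sum, whereas Cdh1 was 22.6-fold, Krt18 21.8-fold and Dsp 15.2-fold lower in Med1-/- cells. The other lists were mostly near the floor, with 1 endothelial, 1 blood and 1 neural marker tested and 0 of 5 striated muscle markers above the filter. The summed endothelial markers were 89.76 and 62.75 in Med1-/- cells, against 43.88 and 68.25 in Med1+/+ cells, and the summed blood markers were 128.3 and 139.2, against 109.4 and 94.22, with the pan-leukocyte gene Ptprc at no more than 7.2 deposited units. Neural markers summed to 676.5 and 729.2 in Med1-/- cells, against 205.9 and 190.8 in Med1+/+ cells, led by Tubb3, and striated muscle markers to 46.28 and 59.32, against 15.65 and 27.3. In bulk RNA, fewer cells of a type and less RNA per cell cannot be told apart, and the part of these markers in the module's values was not tested. Any other difference between the embryos or cultures cannot be told apart from Med1 loss.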

How the data were processed

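Total RNA of the 4 samples received biotin during in vitro transcription (an Affymetrix kit), per the labels' protocols. The authors deposited 1 linear intensity for each probe set on each array. Probe summary, background correction and scaling are not given in the sources used here. After 64 control probe sets were removed, the 4 arrays were quantile normalized and log2(value + 1.7) was taken, with a pseudocount equal to the table's 10th percentile, so that fold changes are understated for dim genes. A filter at the 40th percentile of the mean (33.28) removed 9050 probe sets. The other 13576 were fitted singly with limma 3.58.1 under R 4.3.3 (moderated two-sided test with intensity trend, Benjamini-Hochberg over all 13576, threshold 0.05), with 2 residual and 4.33 prior degrees of freedom.

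Gene symbols of the platform table were brought up to date by Entrez ID against RefSeq (GRCm38.p6): 20380 probe sets had 1 symbol, 691 several and 1555 none. List genes were counted by their brightest probe set. Named genes were the members, checks, up to 4 called genes with the largest change in each list and the 3 nearest profiles, with others added where their roles are described. The members and lists were chosen with earlier results of these data known. In 1 simulation on 13576 probe sets, 50 log2 changes of 0.5, 100 of 1 and 50 of 2 were planted, and 10 of them fell under the filter. Of these changes 16%, 76% and 94% were recovered, with 16 false calls among 147. Far fewer probe sets changed there than the 9783 called in the data, so the rates do not carry over to this comparison. Figures used matplotlib 3.10.9 in Python 3.11.15.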

Additional observations from a re-analysis of the deposited data

How the results depend on the processing

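Under each alternative that gave it a value, a tested member probe set kept its direction, except Med12 on the Bacillus subtilis scale (-0.732). Fewer alternatives gave values for the dimmer Ccnc probe set 1417861_at and for the 2 untested ones, of which Med12l stayed negative and the third Ccnc probe set turned negative as deposited (-0.465) and on both control scales. Against 4931 higher and 4852 lower probe sets, there were 332 higher as deposited, 1464 higher and 8477 lower with hybridisation controls, and 137 higher and 12070 lower with Bacillus subtilis ones. The share of calls that were higher was 50.4% after quantile normalization, 58% with equal medians, 5.14% as deposited, 14.7% with hybridisation controls and 1.12% with Bacillus subtilis ones. On those last 3 scales 0 kinase module probe sets passed as higher in limma, against 1. As deposited 9 of the other Mediator genes were called, against 18, and 7 substrates and partners, against 14. With a fold of at least 2 also required, 2700 probe sets were higher and 2699 lower, with 0 lower in the kinase module (3 at an adjusted p under 0.05 alone), and 8 Mediator, 5 kinase and cyclin and 6 substrate genes were called. With each array left out in turn the kinase module had 1 to 3 lower calls, 1 being without replicate 2 of Med1+/+, and all probe sets had 4223 to 4655 higher and 3916 to 4780 lower calls. The lone array was then assumed to vary like the other genotype. The Med12 and Med12l gap was 1.54 with a pseudocount of 16, against 2.46. Same-numbered arrays deviated together (correlation 0.285), but the labels state no pairing. With the replicate number as a block 5500 probe sets were higher and 5379 lower, and no member call changed. Signal over background limits Med12l and the third Ccnc probe set.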

Other observations

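Genes beside the module's loci, picked by position alone, were read where they had a probe set, each by its brightest alone. Rnf6, a ubiquitin ligase gene 9338 bases from Cdk8, had a deposited intensity of 148.9 and 352.9 in Med1-/- cells, against 726.6 and 1402 in Med1+/+ cells (log2 change -1.28 after quantile normalization, adjusted p = 0.00387, limma). Usp45, a ubiquitin protease gene 7239 bases from Ccnc, had 72.5 and 104.8 in Med1-/- cells, against 413.8 and 541.4 in Med1+/+ cells (log2 change -1.46, adjusted p = 0.00016, limma). Both fell, as did the module gene beside each, and so did 36.2% of all features by brightest probe set. Wasf3, on the other side of Cdk8 at 82132 bases, was under the filter and not tested, with a normalized intensity of 22.65 and 7.512 in Med1-/- cells, against 3.95 and 2.875 in Med1+/+ cells. On chromosome 4, which holds Ccnc, 228 of 501 tested genes rose and 146 fell, and on chromosome 5, which holds Cdk8, 216 of 508 rose and 159 fell. Beside the loci of 2 module genes that were not analysed here, Rnft1, 127061 bases from Med13, fell by 1.64 and Tbx3, a developmental factor gene 905096 bases from Med13l, rose by 1.34.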
